A study of Mus musculus with 18 samples.

Results

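The libraries labelled BAK1-KD and those labelled NC were compared after 12 h of oxyhemoglobin, gene by gene. The comparison holds 6 of the 18 libraries in the series, which are the 12 h columns of the count table, with 3 libraries for each label. Both groups were BV2 cells, an immortalized mouse microglial line, and both had been given oxyhemoglobin for 12 h after plating, so that by the labels the groups differ in the line alone. The sources used here do not expand the letters NC or KD, and they do not state how the KD-labelled cells were made or whether they are 1 clone. The other 12 libraries carry the same 2 labels at 0 h, called control, and at 24 h, and they enter only the shared estimate of spread and the tests of whether a difference at 12 h differed from that at another time. The labels give the dose as 10 mM, which is high for a protein, so its unit may be in error and the dose is not interpreted here. No culture kept for 12 h without oxyhemoglobin is among the samples. The labels do not say that the 3 libraries of a group came from separate cultures, so the p-values measure the spread between these libraries, which may be technical. Of 55487 genes in the table, 15996 had enough counts to be tested. Levels are CPM (counts relative to the scaled library total), differences are KD-labelled minus NC on the log2 scale with their standard error (SE), and a gene was called changed at an adjusted p of 0.05.

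Microglia are the resident macrophages of the brain, and they take up debris and blood products through scavenger, complement and purine receptors. Oxyhemoglobin is set free when red cells lyse after a bleed, and its heme can act on macrophages both as an oxidant and through innate immune receptors. BAK1 is a pore-forming member of the Bcl2 family that opens the outer mitochondrial membrane in apoptosis, where BH3-only proteins such as Bim set it off and Mcl1 and Bcl-xL hold it back.

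The 6 libraries were alike in depth, with 4857848 to 5546969 counts in NC and 4739878 to 4962349 in the KD-labelled group. All 15 macrophage and microglia markers had counts, and their summed level was 5400 to 7230 CPM in NC and 5730 to 6930 CPM in the KD-labelled libraries. The globin genes Hbb-bs, Hbb-bt, Hba-a1 and Hba-a2 were at 0 in all 6 libraries, with the 10 erythroid markers summing to 2.77 to 6.29 CPM against 3.57 to 7.58 CPM. The 10 neuron markers summed to 2.69 to 4.28 CPM in NC and 8.69 to 14.3 CPM in the KD-labelled group, with 6 of them, among them Rbfox3, Snap25 and Syt1, at 0. The gene with the most counts, CT010467.2, took 13.11 to 17.18% of an NC library and 12.89 to 15.42% of a KD-labelled one. Mitochondrially encoded genes took 0.6046 to 0.97% and 0.9183 to 1.333%.

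Bak1 itself was near the limit of detection. It had 2, 7 and 4 counts in the NC libraries and 4, 1 and 5 in the KD-labelled libraries, or 0.833 ± 0.405 CPM (SD, n = 3) against 0.7 ± 0.456 CPM. The groups overlapped, and an exact two-sided permutation test of the 6 libraries gave p = 0.7, where 0.1 is the smallest p that 3 against 3 libraries allow. The ratio of KD-labelled to NC count rates was 0.783 with an exact 95% interval of 0.307 to 1.93, which covers counting error only. A lower Bak1 level was therefore not detectable at this depth. The gene (GRCm38 chromosome 17, 27019810 to 27029009, minus strand) shares 25.5% of its exon bases with Ggnbp1 on the opposite strand, and the sources used here do not give whether the counting used strand. In all that follows, KD is the submitters' name of the group.

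At 12 h, 256 of the 15996 genes differed, which is 1.6% of those tested. Lower levels in the KD-labelled libraries were the more frequent, with 176 genes lower (1.1%) and 80 higher (0.5%), and 101 of the lower and 50 of the higher genes differed at least 2-fold. The 3 libraries of one label did not overlap the 3 of the other for any of the 256 genes, against 16.6% of all tested genes with such a separation. The calls rest on these same libraries, so separation of called genes, here and below, describes them and is no further support. The median difference over all tested genes was -0.01. In edgeR 2055 of the 15996 genes (12.8%) had an unadjusted p under 0.05 at 12 h, the share to set beside such counts on the gene lists below. Of the called genes, 212 are protein coding and 10 are annotated as antisense. Libraries with the same number deviated together at 12 h, and with the library number as a block 1737 genes passed (10.9%), 707 higher (4.42%) and 1030 lower (6.44%), including all 256 with the same sign. Values with the block are from this fit of all 18 libraries, unless the 6 libraries alone are named. In the blocked fit of those 6 alone, 2248 of 14148 tested genes passed. The share of higher genes among the 256 calls was 31.2%, but it was 51.5 to 58.7% in the fits of log2 TPM with limma and 46.8% in the blocked fit of the 6 libraries alone. In the TPM fits with a filter the median of all genes moved to 0.115 and 0.138, and the smallest negative differences change sign there.

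**Figure D1:**
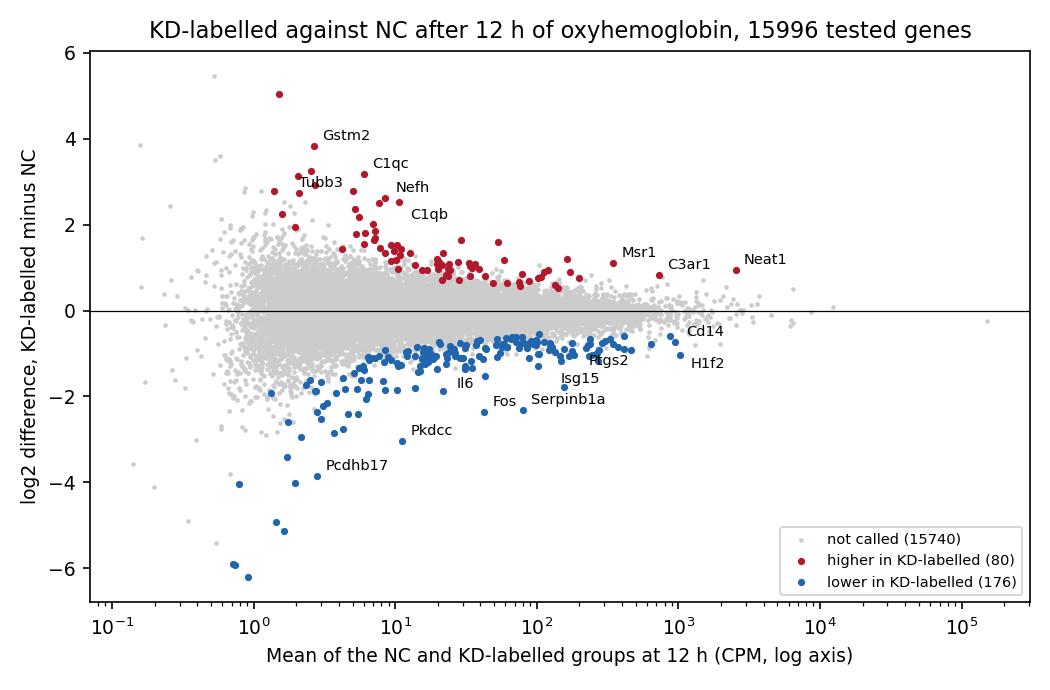
Each point is 1 of the 15996 tested genes, with its mean level at 12 h over both groups on the horizontal axis (CPM, log axis) and the log2 difference, KD-labelled minus NC, on the vertical axis. The 80 genes called higher are red and the 176 called lower are blue. The widest differences belong to genes of a few CPM, while Cd14, Ptgs2, C3ar1, H1f2 and Neat1 are called at far higher levels.

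Several complement and uptake genes of microglia, C1qc, C1qb, Msr1, C3ar1 and P2ry6, were higher in the KD-labelled libraries. Of the 14 tested genes on the homeostatic microglia list, 2 rose (C1qc and C1qb), none fell and 12 had a positive sign, with a median of 0.43 against -0.01 for all genes. With the block 5 rose, and leaving out a library left 10 to 13 positive. A shift of this size was not particular to the list. On the antigen presentation list 13 of 16 tested genes were positive with a median of 0.405, and 0 passed (2 rose with the block). On that list 2 rose in edgeR without a filter on low counts, and 5 of 15 in the blocked fit of the 6 libraries alone. C1qc and C1qb encode chains of C1q, the recognition molecule of the classical complement pathway, and lie next to each other on chromosome 4 (136889804 to 136893065 and 136880129 to 136886187, minus strand). C1qc stood at 0.675, 1.44 and 1.39 CPM in NC and at 11.9, 10.2 and 10.7 CPM in the KD-labelled libraries, a 9.01-fold difference (log2 3.17 ± 0.39 SE, adjusted p = 0.000139). All 3 KD-labelled libraries lay far above all 3 NC libraries, although the level was low in both. C1qb gave 3.38, 1.26 and 4.95 CPM against 22.2, 13.9 and 18.5 CPM, a 5.72-fold difference (2.52 ± 0.37, adjusted p = 0.000694). The third chain gene, C1qa (136895917 to 136898803), had 4 counts in the NC group and 5 in the KD-labelled group at 12 h, too few to compare; it is named because of its neighbours and after its values were seen. Tmem119, a microglial surface marker, differed by 1.28 without passing (adjusted p = 0.054, and 0.00048 with the block).

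Among the more abundant receptors, Msr1, the class A scavenger receptor for modified lipoprotein, stood at 204, 222 and 236 CPM in NC and 434, 489 and 498 CPM in the KD-labelled libraries. The groups were well apart, by 2.15-fold (1.10 ± 0.15, adjusted p = 0.000247), and Msr1 was the 1 called gene of 11 tested phagocytic and scavenger receptors, of which 8 had a positive sign (3 higher and 1 lower with the block). C3ar1, the receptor for the complement fragment C3a, gave 501, 486 and 598 CPM against 960, 874 and 982 CPM (0.83 ± 0.16, adjusted p = 0.00842, and 0.0617 without NC library 1). P2ry6, a receptor for UDP that drives microglial phagocytosis, gave 42.5, 27.3 and 38.8 CPM against 95.5, 72.6 and 75.9 CPM (1.17 ± 0.23, adjusted p = 0.00971). It was the 1 gene of 12 tested purinergic receptors and ectonucleotidases that rose. Entpd1, the ectonucleotidase CD39, was the 1 that fell, from a mean of 36.4 ± 3.08 to 21.5 ± 1.88 CPM (-0.76 ± 0.19, adjusted p = 0.0486), and it missed the threshold whichever of the 6 libraries was left out. In bulk RNA, fewer cells of a kind and less RNA per cell cannot be told apart for any of these genes.

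**Figure D2:**
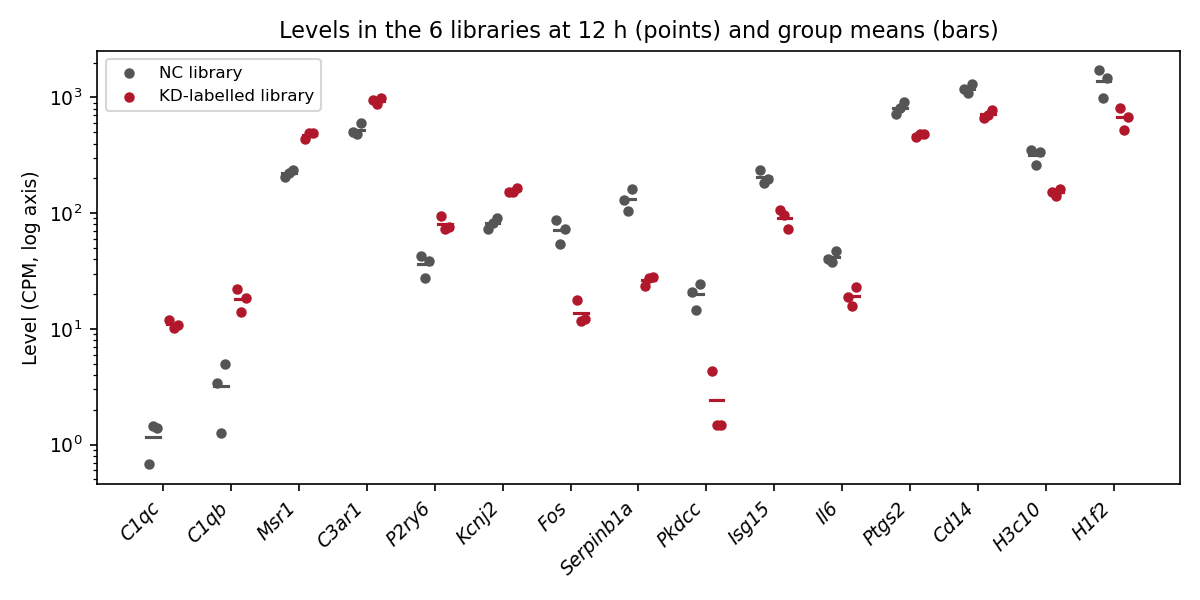
Levels of 15 called genes in each of the 6 libraries at 12 h (CPM, log axis), with NC in grey, KD-labelled in red and bars for the group means. For each gene the 3 points of one label lie apart from the 3 of the other; C1qc and C1qb span 0.675 to 22.2 CPM while H1f2 spans 520.5 to 1712 CPM.

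The other large increases were mostly in genes of low level. Gstm2, a cytosolic glutathione transferase with close relatives whose reads the counting could split, had 5 counts in NC and 74 in the KD-labelled group, or 0, 0.18 and 0.793 CPM against 4.97, 4.81 and 5.25 CPM (3.82 ± 0.63, adjusted p = 0.00224). Nefh, the heavy neurofilament chain, stood at 3.15, 1.62 and 2.38 CPM against 15.8, 14.6 and 13.2 CPM (2.62 ± 0.30, adjusted p = 6.57e-05). Tubb3, a tubulin used as a neuron marker, stood at 0.9, 0.719 and 2.18 CPM against 10.6, 7.39 and 8.62 CPM (2.78 ± 0.47, adjusted p = 0.0024). Tubb3 makes up most of the higher neuron marker sum given above, where the defining markers Rbfox3, Snap25, Syt1, Stmn2, Slc17a7 and Nefl had no count. L1cam, an adhesion molecule best known from axons, rose by 1.80 ± 0.31 (adjusted p = 0.00375), and Bicdl1, a dynein adaptor, by 2.02 ± 0.36 (0.00405). Ifnlr1, the specific chain of the interferon lambda receptor, rose by 2.37 ± 0.33 (0.00037), Cyp11a1, the enzyme that starts steroid synthesis, by 2.18 ± 0.48 (0.0175), and the pseudogene Gm45777 by 2.51 ± 0.34 (0.00037). Of 12 tested matrix and protease genes, 2 rose and 1 fell (3 and 2 with the block). Mmp8 (1.84 ± 0.35, adjusted p = 0.00697) and Mmp12 (1.17 ± 0.29, 0.0361) were the ones that rose. Thbs1, encoding thrombospondin-1, fell from 10.4, 6.65 and 8.32 CPM to 2.16, 2.59 and 2.31 CPM (-1.82 ± 0.29, 0.00161). Mmp8 lost its call without NC library 3 (0.0586), Mmp12 without each of the others than KD-labelled library 1, Cyp11a1 without NC library 1, NC library 3 or KD-labelled library 1, and Ms4a6d (1.78 ± 0.46, 0.0493), a membrane protein gene of macrophages, without each of the 6.

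Among the called genes, the largest gains in CPM were in Neat1, C3ar1, Msr1, Zbtb20, Naa15 and Angptl2. Neat1, the nuclear RNA that builds paraspeckles, stood at 1674, 2093 and 1443 CPM in NC and at 3317, 3480 and 3225 CPM in the KD-labelled libraries (0.94 ± 0.20, adjusted p = 0.0147). The groups were far apart, but the call was lost without NC library 1 (0.0838), NC library 3 (0.108) or KD-labelled library 2 (0.0594). Zbtb20, a zinc finger repressor, stood at 87.8, 120 and 89.2 CPM against 203, 254 and 222 CPM (1.19 ± 0.19, 0.00115) and kept its call whichever library was left out. Naa15, a subunit of the N-terminal acetyltransferase complex, rose by 0.91 ± 0.18 (0.0106, lost without the same 3 libraries as Neat1), and Angptl2, a secreted angiopoietin-like protein, by 0.75 ± 0.18 (0.0287, lost without each library other than KD-labelled library 2). The inward rectifier potassium channel gene Kcnj2 stood at 72.9, 81.9 and 90.4 CPM against 154, 152 and 166 CPM (0.94 ± 0.14, 0.000833).

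Serpinb1a and Fos had the lowest adjusted p-values of the comparison, and both were lower in the KD-labelled libraries. Serpinb1a, an inhibitor of neutrophil serine proteases, stood at 130, 105 and 162 CPM in NC and at 23.5, 27.7 and 27.9 CPM in the KD-labelled libraries, 5.01-fold lower (-2.33 ± 0.21, adjusted p = 1.69e-06). Fos, the AP-1 subunit that is induced within minutes of stimulation, stood at 86.7, 54.4 and 73.1 CPM against 17.7, 11.6 and 12.2 CPM, 5.16-fold lower (-2.37 ± 0.23, 5.22e-06). In both genes the lowest NC library was above every KD-labelled library by more than 2-fold. Fos was the 1 called gene of 17 immediate early and MAPK feedback genes, of which 8 had a positive sign; its partners Jun and Junb differed by 0.13 and -0.55 (adjusted p = 0.86 and 0.25). With the block 7 of the 17 fell and 1 rose, and the 7 include Junb, Ier2 and Ier3. An AP-1 site (TGANTCA, either strand) stood in the 300-base promoter window of 8.66% of the lower genes, 11.8% of the higher genes and 6.47% of all tested genes with a window.

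Pkdcc, a secreted kinase, stood at 20.7, 14.6 and 24.6 CPM against 4.32, 1.48 and 1.47 CPM (-3.05 ± 0.37, adjusted p = 0.000112). Clustered protocadherins are adhesion proteins of neurons encoded in tandem on chromosome 18. Of 11 tested on the list, 3 fell (Pcdhb16, Pcdhb17 and Pcdhb19), none rose, and all 11 were negative with a median of -1.54 (5 fell with the block). Over all 58 protocadherin cluster genes in the table, a set added after the values were seen, 14 were tested, the same number fell, and 2 were positive without passing (Pcdha11 at 0.57 and Pcdhac2 at 0.02). Their summed levels overlapped, at 180 to 225 CPM in NC and 146 to 214 CPM in the KD-labelled libraries, and 19 of the 58 had no count in any of the 18 libraries. Pcdhb16 stood at 8.1, 6.29 and 8.12 CPM against 1.3, 1.29 and 0.63 CPM (-2.77 ± 0.41, 0.000727), and Pcdhb17 at 4.28, 5.57 and 5.95 CPM against 0.432, 0.185 and 0.42 CPM (-3.87 ± 0.57, 0.000819). Pcdhb19 had 49 counts in NC and 1 in the KD-labelled group, a ratio of 48.2 with an exact interval of 8.25 to 1940. These are related genes of the same family, so reads from stretches they share may have been split between them. Other genes of a few CPM that fell were Cxxc5 (-2.84 ± 0.44, 0.00115), a zinc finger protein of Wnt signalling, Itih5 (-2.54 ± 0.49, 0.00716), a hyaluronan-binding inhibitor chain, Agrn (-2.42 ± 0.51, 0.014), the matrix proteoglycan agrin, and Meis1 (-2.23 ± 0.43, 0.00716), a homeobox factor. Of these, Itih5 and Meis1 lost their calls without NC library 3, Itih5 also without KD-labelled library 3, and Agrn without NC library 1, NC library 3 or KD-labelled library 2. Slamf8 (-2.41 ± 0.53, 0.0175), a macrophage surface receptor, Sh2d2a (-2.15 ± 0.47, 0.0175), an adaptor protein, and Ifi206 (-2.06 ± 0.52, 0.0446), of the interferon-inducible p200 family, fell too, but each lost its call without at least 4 of the 6 libraries.

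A few inflammatory mediators were called lower. Of 16 tested cytokines and mediators, 2 fell (Ptgs2 and Il6) and none rose, with a median of -0.44 and all 16 negative. However, 2 members turned positive in the TPM fits and 2 without NC library 1, and 0 members passed in the TPM fits. With the block 6 fell, and 0 to 2 fell when 1 library was left out. At an unadjusted p under 0.05 in edgeR 8 of the 16 were lower, against 12.8% of all tested genes in either direction. Summed levels did not overlap, at 3858 to 5443 CPM in NC and 2803 to 3627 CPM in the KD-labelled libraries. The order was the same at 0 h (250 to 269 against 162 to 166 CPM) and 24 h (1993 to 2667 against 1450 to 1932 CPM). At those times 2 and 3 members were lower, against 208 and 148 of 15996 genes. Ptgs2, the inducible cyclooxygenase COX-2, stood at 722, 804 and 907 CPM in NC and at 452, 485 and 479.6 CPM in the KD-labelled libraries (-0.78 ± 0.16, adjusted p = 0.013). Il6 stood at 39.9, 37.7 and 46.8 CPM against 18.8, 15.7 and 22.9 CPM (-1.12 ± 0.25, 0.0226). Neither gene's groups overlapped, but each call was lost without each of 4 libraries in turn, up to 0.107 for Ptgs2 and 0.149 for Il6. Cd14, the co-receptor that hands lipopolysaccharide to TLR4, stood at 1195, 1091 and 1297 CPM against 662, 710.0 and 772 CPM (-0.74 ± 0.14, 0.00754, and 0.0583 without NC library 3). It was the 1 called gene of 18 tested on the Toll-like receptor list (1 higher and 3 lower with the block).

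The other mediators of the fixed panel did not pass. Nos2, the inducible nitric oxide synthase, differed by -0.66 ± 0.26 (adjusted p = 0.274), Il1a by -0.35 ± 0.22 (0.569) and Il1b by -0.20 ± 0.24 (0.8). Tnf stood at 18.5, 9.7 and 13.3 CPM against 12.3, 15.3 and 11.6 CPM, with overlapping groups (-0.07 ± 0.32, 0.96, positive in the TPM fits). Ccl2, the monocyte chemokine, differed by -0.13 ± 0.26 (0.896, also positive in the TPM fits). Without the block 0 of 11 tested chemokines were called by edgeR or by DESeq2 (1 at an unadjusted p under 0.05). With the block 1 was called, and 3 of 10 fell in the blocked fit of the 6 libraries alone. Of the NF-kB subunits and feedback genes 1 of 16 rose, Tnip3, an inhibitor that binds A20 (1.09 ± 0.26, 0.0289, lost without each library other than KD-labelled library 1), and with the block 1 rose and 1 fell. Pycard, the inflammasome adaptor ASC, was the 1 called of 13 inflammasome genes (0.72 ± 0.19, 0.0491, lost without each of the 6), with 1 higher and 1 lower under the block.

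On the interferon response list, Isg15 and Rsad2 were lower. Of 29 tested members, 2 fell, none rose and 19 were negative, with a median of -0.15 that was 0.000321 to 0.000325 in the TPM fits; with the block 7 fell. Isg15, a ubiquitin-like protein conjugated to targets after interferon, stood at 236, 182 and 197 CPM in NC and at 106, 95.9 and 72.3 CPM in the KD-labelled libraries, 2.24-fold lower (-1.16 ± 0.18, adjusted p = 0.00116), and kept its call whichever library was left out. Rsad2, the antiviral enzyme viperin, stood at 18.7, 12.8 and 15.7 CPM against 10.2, 6.47 and 7.36 CPM (-0.97 ± 0.25, 0.0446), a call lost without each of 4 libraries in turn. Ifit3, an interferon-induced partner of other Ifit proteins, stood at 57.4, 37.4 and 52.9 CPM against 34.8, 25.1 and 28.4 CPM without passing (-0.74 ± 0.20, 0.0655, and 0.000619 with the block). Ifit1 differed by 0.12 and Oas2 by 0.36 (adjusted p = 0.86 and 0.68).

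The 3 interferon genes are shown with the 200 bases before their annotated start (RefSeq, GRCm38.p6, gene strand, 5′ to 3′), because all 3 hold the interferon-stimulated response element, given in capitals. The element was searched as GAAA, any 2 bases and GAAA on both strands, and on the opposite strand it reads as TTTC, 2 free bases and TTTC. The windows are chr4:156200819-156201018 (minus strand) for Isg15, chr12:26456453-26456652 (minus) for Rsad2 and chr19:34583329-34583528 (plus) for Ifit3.
Isg15: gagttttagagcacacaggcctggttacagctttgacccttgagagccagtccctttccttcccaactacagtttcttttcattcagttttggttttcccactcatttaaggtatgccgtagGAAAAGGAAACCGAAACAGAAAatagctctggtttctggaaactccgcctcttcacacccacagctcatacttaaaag
Rsad2: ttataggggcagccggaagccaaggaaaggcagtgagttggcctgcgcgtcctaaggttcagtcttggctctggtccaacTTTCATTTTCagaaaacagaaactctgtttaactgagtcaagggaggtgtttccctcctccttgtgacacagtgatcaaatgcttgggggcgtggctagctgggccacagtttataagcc
Ifit3: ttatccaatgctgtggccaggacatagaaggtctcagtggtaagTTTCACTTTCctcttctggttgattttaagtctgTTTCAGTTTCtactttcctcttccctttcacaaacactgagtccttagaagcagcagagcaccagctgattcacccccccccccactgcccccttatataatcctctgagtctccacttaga
Isg15 has 3 overlapping matches that begin 78, 72 and 66 bases before the start, Rsad2 has 1 and Ifit3 has 2. In windows from 250 bases before to 50 after the start, 12 of the 22 tested interferon genes with a promoter entry held the element (54.5%), against 3.81% of all 9400 tested genes with one. Over the whole comparison it stood in 6 of 127 lower genes (4.72%) and 1 of 51 higher genes (1.96%). A match describes the letters and is not evidence of a bound factor.

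The list with the most called members was that of the clustered histone genes. Replication-dependent histones supply chromatin during S phase, and their mRNAs end in a stem-loop in place of a poly(A) tail, so that the way RNA is selected for a library bears on their level. Of 23 tested members of the list, 8 fell (34.8%, against 1.1% of all genes), none rose and all 23 were negative, with a median of -0.87; with the block 20 fell. Taken by symbol, a wider set chosen after the values were seen, 21 of 54 tested histone cluster genes fell and 1 rose, 51 were negative with a median of -0.88, and 41 had all 3 KD-labelled libraries below all 3 NC libraries (9.58% of all genes). All 21 that fell lie in the cluster on chromosome 13, and the 1 that rose, H2bc21 (0.69 ± 0.17, adjusted p = 0.035), lies on chromosome 3. The share of all 54 tested genes on chromosome 13 is not given here, so these positions do not set the called genes apart from the others. The H2bc21 call was lost without each library other than KD-labelled library 1, with an adjusted p up to 0.17 in edgeR. With the block 42 fell and 1 rose. In the TPM fits 50 of 54 were negative with a median of -0.73 to -0.74, 8 to 11 fell and 0 rose. Many of these genes are near-identical copies, and single values may hold reads of a neighbour.

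Named members show the size. H3c10, an H3 gene, stood at 348.5, 262 and 338 CPM in NC and at 153, 141 and 162 CPM in the KD-labelled libraries (-1.06 ± 0.16, adjusted p = 0.000833). H3c11 gave 402.5, 294 and 365 CPM against 218, 149.7 and 169.6 CPM (-0.98 ± 0.18, 0.00526), and H3c7 gave 259, 174 and 251 CPM against 119.7, 90.2 and 116 CPM (-1.07 ± 0.20, 0.00539). These 3 H3 genes and H2bc15 (-0.95 ± 0.17, 0.00375), an H2B gene, kept their calls whichever library was left out. Linker histone H1f2 gave 1712, 992 and 1473 CPM against 818, 520.5 and 684 CPM (-1.05 ± 0.24, 0.0284), and H1f5 gave 369.9, 235 and 379.9 CPM against 179.7, 125 and 174 CPM (-1.04 ± 0.23, 0.0208). Both H1 calls were lost without NC library 1, NC library 3, KD-labelled library 2 or KD-labelled library 3. H4c8 fell by 1.18 ± 0.22 on the log2 scale (0.0065, and 0.0551 without KD-labelled library 3). H2ac8 fell the most on the list (-1.79 ± 0.35, 0.0118), with 299, 102 and 327 CPM against 70.8, 61.5 and 78.6 CPM. Its call was lost without each of 4 libraries in turn, with an adjusted p up to 0.0819 in edgeR. Of its exon bases 19.6% lie under an opposite-strand gene.

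Summed over the 54 genes, histone levels were 13940, 9861 and 13230 CPM in the NC libraries and 7886, 6117 and 6698 CPM in the KD-labelled libraries. NC library 2 was the lowest of its group and above all 3 KD-labelled libraries. In that library CT010467.2 took 13.11% of the counts and mitochondrially encoded genes 0.97%, against 17.18 and 16.77% and 0.6046 and 0.6949% in the other NC libraries, and their part in the difference was not tested. In KD-labelled libraries 1, 2 and 3 CT010467.2 took 13.81, 12.89 and 15.42%, and mitochondrially encoded genes 1.085, 1.333 and 0.9183%. Leaving out both kinds of gene from the fit left 20 histone genes lower. That fit changes only the library totals and scaling, so it is no test of how RNA was selected for the libraries. The number of lower histone genes was 6 without NC library 1, 21 without NC library 2, 10 without NC library 3, 17 without KD-labelled library 1, and 7 without KD-labelled library 2 or 3, with 50 to 52 of 54 negative each time. On the shorter list it was 1, 10, 2, 7, 1 and 1.

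The promoters of 3 histone genes that fell are printed over the same 200 bases (RefSeq, GRCm38.p6) because they lie within the chromosome 13 cluster and share short elements: chr13:21717428-21717627 (plus strand) for H3c10, chr13:21783398-21783597 (minus) for H3c11 and chr13:21780626-21780825 (minus) for H1f5. Capitals mark CCAAT on either strand and TATAAA on either strand, a search added after the values were seen.
H3c10: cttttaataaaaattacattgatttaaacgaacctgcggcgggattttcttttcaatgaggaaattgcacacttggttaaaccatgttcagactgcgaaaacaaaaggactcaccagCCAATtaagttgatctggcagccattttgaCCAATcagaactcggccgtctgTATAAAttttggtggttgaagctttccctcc
H3c11: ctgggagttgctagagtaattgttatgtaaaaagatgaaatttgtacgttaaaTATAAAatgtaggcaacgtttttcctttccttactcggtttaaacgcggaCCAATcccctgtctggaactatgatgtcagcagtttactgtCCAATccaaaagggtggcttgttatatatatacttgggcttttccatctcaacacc
H1f5: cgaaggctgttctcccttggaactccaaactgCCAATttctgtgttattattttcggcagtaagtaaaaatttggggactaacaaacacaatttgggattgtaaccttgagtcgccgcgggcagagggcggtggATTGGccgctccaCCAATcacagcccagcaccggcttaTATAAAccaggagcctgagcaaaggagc
H3c10 has CCAAT 83 and 53 bases before the start and TATAAA 31 before it, H1f5 has TATAAA 28 before it, and in H3c11 the TATAAA lies 147 before it. In the 300-base windows CCAAT stood in 86% of 43 tested histone genes with an entry and TATAAA in 60.5%, against 42.5 and 9.17% of all tested genes with one. Among the histone genes that fell the shares were 84.2 and 63.2% of 19, close to the shares over all tested histone genes.

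**Figure D3:**
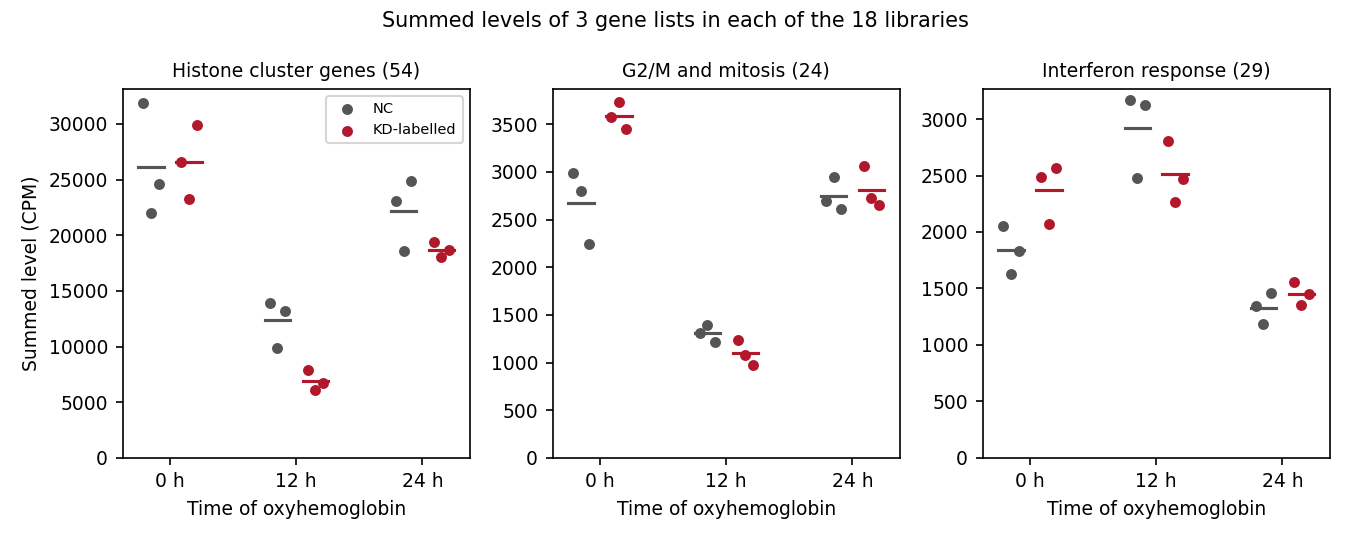
Summed CPM of the histone cluster genes (54), the G2/M and mitosis list (24) and the interferon response list (29) in each of the 18 libraries, by time of oxyhemoglobin, with NC in grey, KD-labelled in red and bars for the means. At 12 h the histone sums of the labels do not overlap (9861 to 13940 against 6117 to 7886 CPM), while at 0 h they do.

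Few other cell cycle genes were called. Of 24 tested G2/M and mitosis genes, 1 fell (Ccnb2, cyclin B2) and 21 were negative, with a median of -0.42 (11 fell with the block, and 18 to 23 were negative over the alternatives). Ccnb2 stood at 107.8, 76.9 and 107.8 CPM against 61.8, 45.5 and 52.8 CPM (-0.87 ± 0.20, adjusted p = 0.0212), and its call was lost without each of 4 libraries in turn. The summed level of the list was 1212 to 1394 CPM in NC and 976 to 1236 CPM in the KD-labelled libraries, which overlap. The mean of log2(CPM + 1) over its members did not overlap, at 4.674 to 4.768 against 4.167 to 4.395. At an unadjusted p under 0.05 in edgeR 10 of the 24 were lower, against 12.8% of all tested genes in either direction. Sgo2a, a shugoshin that protects centromeric cohesion, fell from 19.8, 16.4 and 19.6 CPM to 9.72, 9.43 and 7.36 CPM (-1.07 ± 0.19, 0.00507), with 35% of its exon bases under Kctd18 on the opposite strand. Of 27 DNA replication genes 1 fell, Rrm1, the large ribonucleotide reductase subunit (-0.55 ± 0.13, 0.0345, lost without 5 of the 6 libraries; 5 of the 27 fell with the block). At 0 h the G2/M sums stood in the reverse order, at 2239 to 2992 CPM in NC and 3450 to 3733 CPM in the KD-labelled libraries. Whether the G2/M list as a whole changed between these times was not tested.

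Few cell death genes were called. Of 12 tested Bcl2 family members 1 fell (2 with the block), Bcl2l11, which encodes the BH3-only protein Bim. It stood at 161, 147 and 158 CPM in NC and at 89.4, 79.3 and 106 CPM in the KD-labelled libraries (-0.76 ± 0.14, adjusted p = 0.00539, and 0.0555 without KD-labelled library 2). Mcl1, an anti-apoptotic protein that binds both BAK1 and Bim, stood at 1334, 1243 and 1525 CPM against 1010.0, 878 and 1000 CPM, groups that do not overlap but that did not pass (-0.51 ± 0.15, 0.11, and 2.58e-05 with the block). Bax, the closest functional relative of BAK1, differed by 0.18 ± 0.28 (0.858) and Bcl2l1, encoding Bcl-xL, by 0.30 ± 0.17 (0.494). In edgeR on all 18 libraries, 0 of 14 apoptosome and caspase genes and 0 of 14 necroptosis and death receptor genes passed, with or without the block. In the blocked fit of the 6 libraries alone, 1 of 14 necroptosis and death receptor genes rose. At an unadjusted p under 0.05 without the block the 2 lists had 1 and 0, against 12.8% of all tested genes (0 for necroptosis by DESeq2). There Mlkl, the pore former of necroptosis, stood at 3.6, 2.16 and 4.36 CPM against 4.32, 2.77 and 4.62 CPM (0.21 ± 0.42, 0.894), Ripk1 differed by 0.18 ± 0.17 (0.738) and Casp8 by -0.10 ± 0.34 (0.94, positive in the TPM fits at a pseudocount of 1).

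Of 22 genes for heme and iron handling, 1 fell and 1 rose. Slc40a1, encoding ferroportin, the iron exporter, stood at 141, 162 and 174 CPM in NC and at 82.1, 74.3 and 94.8 CPM in the KD-labelled libraries (-0.93 ± 0.16, adjusted p = 0.00375), and kept its call whichever library was left out. Bach1, the heme-sensing repressor of Hmox1, stood at 108, 121 and 118 CPM against 162, 174 and 163 CPM (0.52 ± 0.13, 0.0408, lost without each library other than NC library 2). With the block 4 rose and 2 fell, and in the TPM fits neither passed. Hmox1, the heme oxygenase, stood at 2552, 1659 and 2258 CPM against 2357, 1360.0 and 1473 CPM with wide overlap (-0.32 ± 0.26, 0.682). Under edgeR 0 of 23 NRF2 target and glutathione genes passed (1 higher and 1 lower both at an unadjusted p under 0.05 and with the block).

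Single members fell on other lists. Ddit4, an inhibitor of mTORC1 induced by stress, stood at 243, 166 and 185 CPM against 109.9, 76.9 and 99.2 CPM (-1.05 ± 0.23, adjusted p = 0.0163). Abca1, the cholesterol exporter, stood at 491, 491 and 501 CPM against 343, 327 and 309 CPM (-0.60 ± 0.12, 0.0123), and Atp6v0d2, a subunit of the lysosomal proton pump, at 67.8, 76.3 and 75.3 CPM against 43.4, 35.9 and 31.5 CPM (-0.99 ± 0.19, 0.00815). Fem1b, a substrate receptor of a ubiquitin ligase (-0.60 ± 0.14, 0.0209), and Uck2, a uridine-cytidine kinase (-0.89 ± 0.20, 0.0204), were among the largest losses in CPM of the called genes. Groups did not overlap in any of these 5 genes, but the calls of Abca1, Fem1b and Uck2 were lost without each of 4 libraries in turn, that of Ddit4 without each of 3 and that of Atp6v0d2 without KD-labelled library 3. The 11 tested mitochondrially encoded genes were all positive with a median of 0.51. Their sums were 6586 to 8867 CPM in NC and 9119 to 12180 CPM in the KD-labelled libraries, which do not overlap. In DESeq2 and in the filtered edgeR fit of all 18 libraries 0 passed (3 at an unadjusted p under 0.05, and 2 with the block). The number that rose depended on the fit, with 3 in edgeR without a filter on low counts and 9 of 11 in the blocked fit of the 6 libraries alone. In the filtered edgeR fit of all 18 libraries without the block, 0 members passed on the lists for antigen presentation, disease-associated microglia, serine and one-carbon enzymes, ER chaperones, heat shock, glycolysis and hypoxia, the nuclear respiratory chain, p53 targets, ribosomal proteins, guanylate-binding proteins, and IRF and STAT factors. On each of these lists 0 to 4 members had an unadjusted p under 0.05 and 0 to 5 passed with the block.

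**Figure D4:**
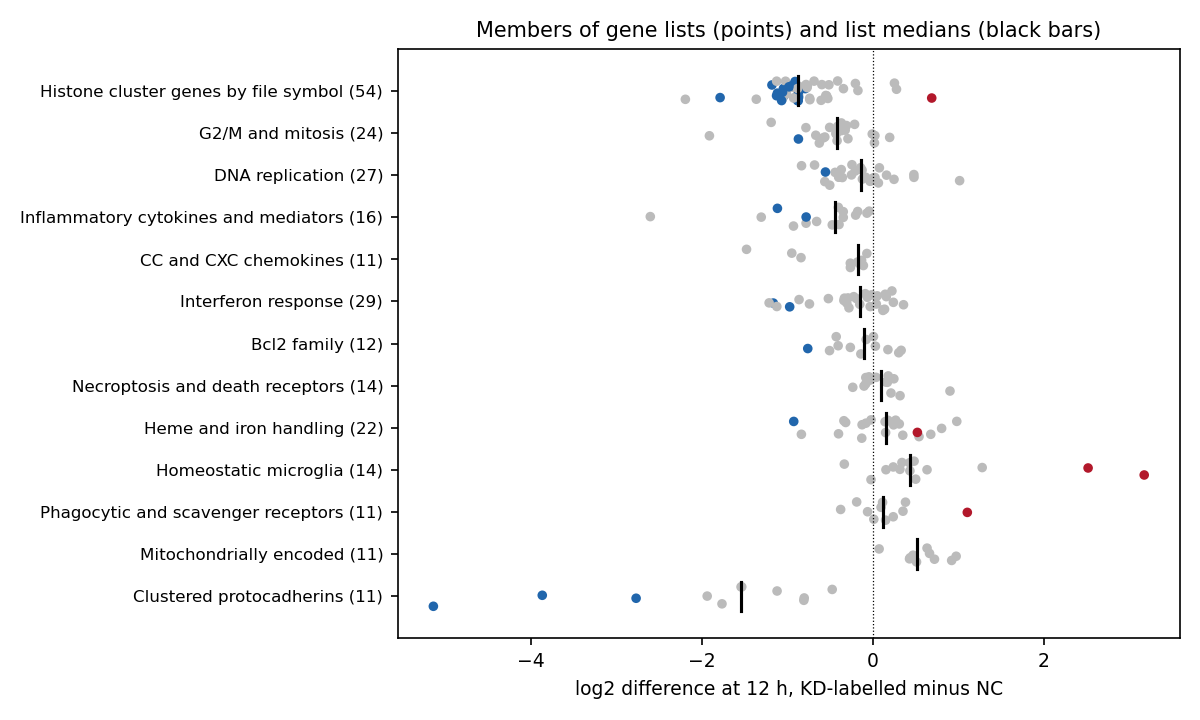
Each point is a tested member of 1 of 13 gene lists, placed by its log2 difference at 12 h (KD-labelled minus NC), with red and blue for members called higher and lower, grey for the others and black bars for list medians. The histone points lie mostly left of 0 with a median of -0.88, while the lists for necroptosis, heme and iron, and scavenger receptors spread on both sides of 0.

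Many of the 12 h differences were also present at the other times. Among the 256 genes, 97 were called with the same sign at 0 h (330 genes called there, 2.06%, with 0.763% higher and 1.3% lower), 83 at 24 h (223 called, 1.39%, with 0.469% higher), 57 at all 3 times and none with the opposite sign, and 133 were called at 12 h alone. Being called at one time and not another is no test of a difference, and the interaction tests called few genes. C1qc differed by 4.07 at 0 h, 3.17 at 12 h and 2.74 at 24 h, with mean levels of 50.4, 10.9 and 1.97 CPM in the KD-labelled libraries. Serpinb1a differed by -1.70, -2.33 and -3.45 at the 3 times, Fos by -2.08, -2.37 and -1.41, and Pkdcc by -4.91, -3.05 and -4.26. Msr1 (1.23, 1.10 and 0.59), Nefh (3.41, 2.62 and 2.84) and L1cam (2.25, 1.80 and 1.74) were called at each time as well.

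The difference at 12 h departed from that at 0 h in 12 genes (0.075% of 15996, and 904 or 5.65% at an unadjusted p under 0.05), 10 (0.0625%) with a more positive and 2 (0.0125%) with a more negative difference at 12 h. Ifit3 stood at 14.4, 13.2 and 17.1 CPM in NC and 31.6, 26.4 and 28.5 CPM in the KD-labelled libraries at 0 h, the reverse of its order at 12 h, a change in the difference of -1.69 ± 0.29 (adjusted p = 0.019). The interferon list had 5 higher members at 0 h with a median of 0.35 and none at 24 h with a median of 0.20. In the interaction 1 of its 29 members passed (Ifit3), 27 were negative, and the median was -0.63, and with the block 9 passed as lower against 0 h and 3 against 24 h. Sgo2a stood at 28, 32.2 and 32.5 CPM against 38.2, 50.8 and 46.4 CPM at 0 h, and its difference changed by -1.62 ± 0.26 (0.0115). Kcnj2 differed at 12 h but at neither other time (-0.17 at 0 h and -0.46 at 24 h, adjusted p = 0.722 and 0.124), a change of 1.11 ± 0.20 against 0 h (0.019) and of 1.40 ± 0.20 against 24 h (0.00742). Kcnj2 was the 1 gene called in the comparison with 24 h (0.00625%, and 626 or 3.91% at an unadjusted p under 0.05).

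The other 9 departures from 0 h came from genes that were lower in the KD-labelled libraries before treatment. Trib3, a pseudokinase induced by ATF4, stood at 508, 352 and 469.5 CPM in NC and 78.1, 52.9 and 86.1 CPM in the KD-labelled libraries at 0 h, but at 493, 302 and 487 CPM against 389, 255 and 394.5 CPM at 12 h (interaction 2.31 ± 0.34, adjusted p = 0.00578). Aldh1l2, a mitochondrial folate enzyme, stood at 80.5, 87.9 and 84.3 CPM against 29.7, 20.7 and 19.8 CPM at 0 h and at 48, 37.2 and 46 CPM against 40, 31.6 and 35.7 CPM at 12 h (1.56 ± 0.24, 0.00915). In both genes the gap between the labels was narrower at 12 h. On the ATF4 list 9 of 17 genes were lower at 0 h and 1 at 12 h (3 with the block), with medians of -0.79 and -0.12. On the serine and one-carbon list the numbers were 5 of 20 at 0 h and 0 at 12 h in edgeR (4 at an unadjusted p under 0.05, and 4 with the block), with medians of -0.45 and -0.02. Spink5, a serine protease inhibitor, Trp53cor1, a p53-induced noncoding RNA with 44.1% of its exon bases under opposite-strand genes, and the unnamed transcripts Gm38575 and AC147806.2 were also lower at 0 h (-2.41, -2.70 and -2.73 for the first 3, and 0 counts in the KD-labelled libraries for AC147806.2) and did not pass at 12 h.

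For the histone cluster genes, 0 of 54 passed in the interaction against 0 h or 24 h in edgeR without the block. With the block 27 passed as lower against 0 h (1.28% of all genes) and 16 against 24 h (0.494%). Without the block 36 of 54 had an unadjusted p under 0.05 with a lower difference at 12 h than at 0 h, and 52 were negative with a median of -0.85. At 0 h 0 of 54 were called with a median of -0.03, and at 24 h 1 was higher with a median of -0.15. H3c10 differed by 0.00 at 0 h, -1.06 at 12 h and -0.13 at 24 h, and its change from 0 h was -1.06 ± 0.22 (adjusted p = 0.072). Isg15 differed by 0.14, -1.16 and -0.67, with a change from 0 h of -1.30 ± 0.26 (0.0566), and Cd14 by -0.08, -0.74 and 0.09 (change from 0 h -0.66 ± 0.20, 0.424). For these 3 genes the change from 0 h was not past the threshold without the block. With the block the adjusted p of that change was 3.58e-07 for H3c10, 1.96e-06 for Isg15 and 0.00149 for Cd14. The lowest correlations of same-numbered libraries were 0.0703 at 0 h and 0.0946 at 24 h, under the 0.1 that all pairs passed at 12 h. This limits all blocked interactions given here.

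**Figure D5:**
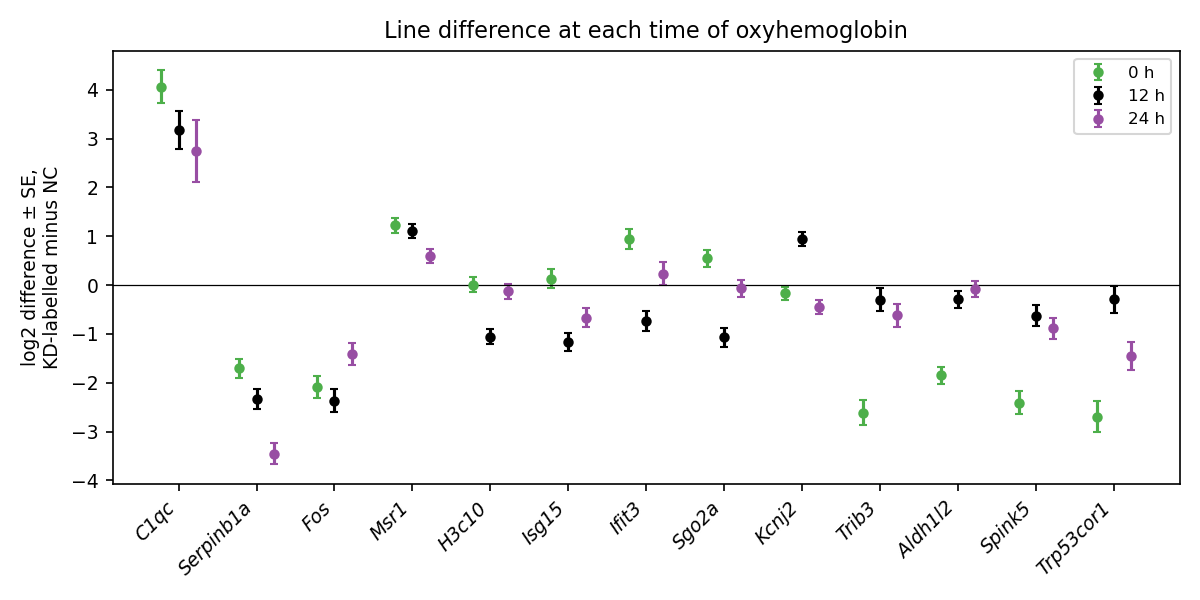
Log2 difference between the labels (KD-labelled minus NC, with SE bars) at 0 h, 12 h and 24 h for 13 genes. C1qc, Serpinb1a, Fos and Msr1 keep their side of 0 at all 3 times, H3c10 and Isg15 lie lowest at 12 h, Kcnj2 is above 0 at 12 h alone, and Trib3, Aldh1l2, Spink5 and Trp53cor1 are lowest at 0 h.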

How the data were processed

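RNA of BV2 cells was sequenced in 18 libraries, and the 6 at 12 h of oxyhemoglobin were compared. HISAT2 2.2.0, featureCounts, bcl2fastq and DESeq2 are named with the GRCm38 build in the submitters' processing notes, and per the labels' protocols the libraries came from total RNA with a tagmentation kit. The authors deposited raw counts per gene, not normalized, and a matching TPM table, which served only for alternatives.

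Groups and library numbers came from the titles. Counts were tested with edgeR 4.0.16 (limma 3.58.1, R 4.3.3): TMM factors, filterByExpr (minimum count 10), 1 mean for each of 6 groups, all 18 libraries sharing the estimate of spread, robust quasi-likelihood tests, and Benjamini-Hochberg adjustment over the 15996 tested genes, which held 99.65% of the counts. The median biological coefficient of variation was 0.221. Library pairs within a group differed by more than counting noise (4.5 to 14.1 in a chi-square over its degrees of freedom), and each was counted as a sample. Bak1 was compared by an exact permutation test of log2(CPM + 1). Binomial or Poisson intervals and floors here take in counting error alone.

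The library numbers were checked as pairs: deviations from group means of same-numbered libraries correlated at 0.3, 0.438 and 0.2 at 12 h, all over 0.1, so blocked values stand beside the results there. At 0 h and 24 h the lowest correlations were 0.0703 and 0.0946. Blocked interactions are given with that limit for the histone and interferon lists, for H3c10, Isg15 and Cd14, and otherwise with the alternatives. What a number marks is not in the labels.

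The comparison and the 38 gene lists and 8 marker lists (912 entries, all matched by symbol or RefSeq synonym, 688 tested) were chosen with earlier results of these data known. The named genes are Bak1, 14 preset genes of cell death, inflammation and heme handling, the 12 largest called changes in each direction with separated groups and at least 5 CPM, the 6 largest called changes in CPM in each direction, up to 4 called members of each list, and up to 6 in each direction of each interaction. The full histone and protocadherin clusters, C1qa and the CCAAT and TATA searches were added after values were seen. Positions came from GENCODE M21, not named as the authors' release, in which 55227 of 55487 IDs were found. Promoters came from RefSeq (GRCm38.p6, 27025 genes).

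Alternatives were RLE and upper-quartile factors, other filters, DESeq2 1.42.0, the block, the 6 libraries alone, limma on log2 TPM with pseudocounts of 1 and 0.1, and each library left out in turn. On simulated counts for the 12 h comparison of 15996 genes, edgeR recovered 32% of 100 changes of 1 and 76% of 100 changes of 2 on the log2 scale, with 3 false calls. With the block these shares were 35 and 77%. The simulated libraries were drawn independently, without the shared deviation of same-numbered libraries seen in the data, so these rates may not hold for the data.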

Additional observations from a re-analysis of the deposited data

Results flagged for a closer look

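Each gene here is listed because the difference between the labels at 12 h departed from that at another time by the interaction test. Against 0 h, the change in the log2 difference was 2.31 for Trib3 (edgeR, adjusted p = 0.00578) and 1.56 for Aldh1l2 (0.00915), both past the threshold in each of the 12 fits that left out 1 library. Spink5 changed by 1.78 (0.019), Trp53cor1 by 2.41 (0.019) and Gm38575 by 2.19 (0.0328), and these calls were lost in 6, 5 and 10 of the 12 fits. AC147806.2 had a fitted change of 6.25 (0.00283), a value that depends on the prior count because its 3 KD-labelled libraries at 0 h had 0 counts against 49 in NC. With a floor of 3 counts over the group, NC was at least 16.6-fold higher there at 0 h.

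Ifit3 changed by -1.69 against 0 h (0.019, lost in 6 of the 12 fits) and Sgo2a by -1.62 (0.0115, and 0.0579 without NC 12 h library 1). Kcnj2 changed by 1.40 against 24 h (0.00742, and 0.0648 without NC 12 h library 1). Kcnj2 stood at 119, 133 and 135 CPM in NC and at 112, 111 and 120.3 CPM in the KD-labelled libraries at 0 h, and at 111, 117 and 137 CPM against 81.6, 95.4 and 89.8 CPM at 24 h, so the KD-labelled mean was above that of NC at 12 h alone. Groups of 3 libraries were not tested for single outlying samples.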

How the results depend on the processing

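The count of 256 genes at 12 h was 1737 with the replicate block, 113, 126 and 101 in the limma fits of log2(TPM + 1), the same without a filter and log2(TPM + 0.1), 115 in the fit of the 6 libraries alone and 2248 in that fit with the block. It ran from 101 to 271 when 1 library was left out: 102 without NC library 1, 101 without NC library 3, and 166, 109 and 119 without KD-labelled libraries 1, 2 and 3. Other factors and filters, DESeq2 and the fit without CT010467.2 and mitochondrially encoded genes gave 237 to 380. The 12 departures from 0 h became 46 with no filter, 59 in DESeq2, 331 with the block and 20 in the unfiltered limma fit, and 3 to 19 without 1 library (3 if NC 12 h library 1 and 19 if NC 0 h library 1 was the one omitted, 6 or 7 without NC 0 h library 2, NC 12 h library 3, KD-labelled 12 h library 2 or 3 or any KD-labelled 0 h library). The 1 departure from 24 h became 2, 112 and 8 in DESeq2, the block and that limma fit, and 0 to 1 without 1 library (0 without NC 12 h library 1 or KD-labelled 24 h library 1). The Bak1 difference of -0.125 on the log2(CPM + 1) scale turned to 0.0372 without NC library 2 and 0.116 without KD-labelled library 2 (range -0.282 to 0.116).

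Of 76 called named genes, 28 held without each single library, 28 under all other alternatives that tested them and 23 under both, and no sign turned. A gene that an alternative did not test was counted as held there. Uncalled genes that turned sign were Ccl2 (0.01004), Casp8 (0.0143) and Tnf (0.105) in both fits of log2(TPM + 1), Ccl2 (0.0099) and Tnf (0.116) at a pseudocount of 0.1, and without 1 library Ccl2 (-0.445 to 0.0817), Casp8 (-0.272 to 0.152), Tnf (-0.245 to 0.191), Mlkl (-0.0138 to 0.458) and C1qa (-0.19 to 3.87). The cause was not tested. Bak1 and C1qa are limited by depth.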

Other observations

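The 23 named genes that kept their call under each alternative that tested them and without each single library were Bicdl1, C1qb, C1qc, Fos, Gm45777, Gstm2, H3c10, H3c11, H3c7, Ifnlr1, Isg15, Kcnj2, L1cam, Msr1, Nefh, P2ry6, Pcdhb16, Pcdhb17, Pcdhb19, Pkdcc, Serpinb1a, Thbs1 and Tubb3. Of these, Kcnj2 alone was past the threshold in an interaction test. Not every alternative tested all 23 genes. Only 1 member of the clustered protocadherin list was tested under the filter of 5 CPM, and 1 in each filtered TPM fit.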
